A study of Homo sapiens with 44 samples.

Results

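The regions described here are the 1861 chromatin peaks whose accessibility rose after TNF and also after interleukin-1β (IL-1β) in colon fibroblasts, out of 407383 peaks in the deposited table (0.457%). They were selected on measured values. In each library the read coverage of a peak was divided by the library's total coverage in megabases (Mb), 0.5 was added and log2 was taken. A peak was kept where this value exceeded that of unstimulated cells by 1 or more on average, and coverage averaged 3 per Mb or higher, in the TNF group and in the IL-1β group alike. The TNF condition alone was met by a further 3251 peaks and the IL-1β condition alone by a further 1445, so that the members made up 36.4% of all peaks meeting the TNF condition and 56.3% of those meeting the IL-1β condition.

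The cells were Ccd18-Co, an established human colon fibroblast line, and accessibility was measured by ATAC-seq, which inserts sequencing adaptors into open DNA with a transposase. The 44 libraries formed 11 groups of 4. One group was unstimulated, one received IL-1β at 0.1 ng/ml, and the others received 10 ng/ml of IFNα, IFNγ, TNF, TGF-β1, OSM (oncostatin M), IL-6, IL-22, IL-13 or IL-17A, all in serum-free medium. TNF and IL-1β were therefore given at different doses. The length of the stimulation, and of a serum-free period before it, is stated in the paper's methods and not in the labels. The study is one line, and nothing in the labels says that replicates were separate cultures, so p-values measure only the spread between these libraries. Of 9 fibroblast markers, 6 had a promoter peak, with a median coverage of 11.2 per Mb and a range from 0.548 (LUM) and 1.62 (VIM) to 24.9 (COL1A1). The 6 endothelial markers all had one, with a median of 0.951 and a range of 0.389 to 1.87 per Mb, which overlaps LUM and VIM. Of 8 epithelial markers, 3 had a promoter peak (1.04 to 4.55 per Mb), and of 8 leukocyte markers 3 had one, where CD68 reached 14.5 per Mb. Members were named for 4 of the fibroblast markers (PDGFRB, THY1, LUM and DCN), for EPCAM among the epithelial, for TEK, VWF and PECAM1 among the endothelial and for none of the leukocyte markers. Library totals ran from 148.8 to 823.1 Mb of coverage, and the shallowest, IL-6 replicate 4, also had the lowest median member coverage of its group.

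TNF and IL-1β are inflammatory cytokines that signal through separate receptors, with TRADD and RIPK1 downstream of the TNF receptor and MYD88 and IRAK kinases downstream of the IL-1 receptor. Both routes reach the kinase TAK1 and the IκB kinases, which release NF-κB, and the MAP kinases, which act on AP-1 factors of the FOS and JUN families. In fibroblasts both cytokines are known for inducing neutrophil- and monocyte-attracting chemokines, and NF-κB induces its own inhibitors, such as IκBα (gene NFKBIA) and A20 (gene TNFAIP3).

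Sequence was read from hg38 in every peak, and the stretches below show the recurring letters in 4 of the 10 members with the largest smaller difference (STX8, DNMT3L, TTLL4 and ETV4) and in the leading distal members of NFKBIA, CCL2 and MMP12, which are described further on. The CXCL8 gene body, which holds the strongest members, is not printed, and its leading members held 1 κB core match (chr4:73742531-73743031) and no κB or AP-1 match (chr4:73741958-73742458). A κB match here means the NF-κB consensus or the κB core GGNNTTTCC on either strand, which can overlap each other. An AP-1 match is TGANTCA. Capitals mark these matches, and each stretch is read on the plus strand. They are chr17:9389217-9389317 in an intron of STX8, chr21:44171032-44171132 in a peak named for DNMT3L, chr2:218733918-218734018 in an intron of TTLL4, and chr14:35375942-35376042, chr17:34235543-34235643 and chr11:102882757-102882857 between genes, in distal peaks named for NFKBIA, CCL2 and MMP12. The last, chr17:43608607-43608707 in a distal peak named for ETV4, holds an AP-1 match and no κB match.
STX8: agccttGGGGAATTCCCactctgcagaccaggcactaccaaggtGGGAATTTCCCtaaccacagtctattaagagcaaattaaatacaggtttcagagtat
DNMT3L: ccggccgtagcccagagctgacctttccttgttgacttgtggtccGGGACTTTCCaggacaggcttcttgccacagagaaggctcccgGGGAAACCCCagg
TTLL4: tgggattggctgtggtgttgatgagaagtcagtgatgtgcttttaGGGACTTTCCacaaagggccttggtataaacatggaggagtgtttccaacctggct
NFKBIA: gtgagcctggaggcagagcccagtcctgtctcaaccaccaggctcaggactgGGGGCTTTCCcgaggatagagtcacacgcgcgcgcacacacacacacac
CCL2: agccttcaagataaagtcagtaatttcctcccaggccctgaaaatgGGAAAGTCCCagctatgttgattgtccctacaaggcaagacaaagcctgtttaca
MMP12: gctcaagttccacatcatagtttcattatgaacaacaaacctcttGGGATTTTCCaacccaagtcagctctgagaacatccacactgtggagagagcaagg
ETV4: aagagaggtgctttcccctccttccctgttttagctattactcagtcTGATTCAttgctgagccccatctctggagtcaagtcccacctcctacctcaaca

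The promoters of CXCL8 and CXCL10 each overlapped a member and are shown because they hold different matches. They are the 250 bases before the RefSeq start site (GRCh38.p14), at chr4:73740319-73740568 on the plus strand and chr4:76023498-76023747 on the minus strand, with interferon-type matches (ISRE core, GAAANNGAA) also in capitals.
CXCL8 promoter: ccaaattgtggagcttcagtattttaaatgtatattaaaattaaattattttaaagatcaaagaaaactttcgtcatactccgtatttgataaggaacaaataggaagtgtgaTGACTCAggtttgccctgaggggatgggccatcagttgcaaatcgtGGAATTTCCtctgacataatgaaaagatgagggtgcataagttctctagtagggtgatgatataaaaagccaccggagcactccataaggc
CXCL10 promoter: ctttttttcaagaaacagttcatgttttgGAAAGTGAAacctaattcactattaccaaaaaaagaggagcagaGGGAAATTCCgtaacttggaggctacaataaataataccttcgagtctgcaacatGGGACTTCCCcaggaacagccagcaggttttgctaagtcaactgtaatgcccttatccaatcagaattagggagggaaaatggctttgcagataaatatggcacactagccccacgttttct
In the CXCL8 promoter the AP-1 match TGACTCA begins 137 bases before the start site and the κB core match GGAATTTCC 91 bases before it. The CXCL10 promoter holds the ISRE core match GAAAGTGAA at 221 bases, 1 match to the NF-κB consensus at 177 bases that contains the κB core match GGAAATTCC, and another consensus match at 122 bases, with no AP-1 match in this stretch.

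Across the 1861 members, 41.4% held a κB match (771 peaks) and 59.2% an AP-1 match (1101 peaks), against 16.0% and 25.7% of all peaks in the table. All peaks of the table had one fixed width, and the sources used here do not say in which cells they were called, so shares of all peaks describe the deposited set and not necessarily the open chromatin of these cells. Both kinds of match occurred together in 21.4% of the members and in 3.72% of all peaks, and neither occurred in 20.8% of the members and in 62.0% of all peaks. The matches also lay nearer to the middle of the members. The median distance from the centre was 38.0 bases for the NF-κB consensus and 33.0 bases for AP-1, against 75.5 and 43.0 bases in all peaks. The same was seen when promoters and exons were left out, where 31.8% of intronic and distal members held the NF-κB consensus against 8.13% of all such peaks. Among 35116 RefSeq promoters of 300 bases, a shorter window, 5.91% held the consensus, 6.26% the κB core and 7.71% AP-1.

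Other matches were about as common in members as in all peaks. TEAD (GGAATG) was found in 30.4% against 28.8%, the ISRE core in 18.5% against 18.7%, GAS (TTCNNNGAA) in 15.9% against 17.2%, FOX (TGTTTAC) in 7.63% against 8.38%, CArG in 3.12% against 3.21% and CRE (TGACGTCA) in 0.645% against 0.53%. C/EBP (TTGCNNAA) and RUNX (TGTGGTT) were somewhat more frequent in members, at 29.2% against 25.8% and 14.6% against 10.9%. Matches typical of promoters were rarer, with KLF/SP (GGGGCGGG) in 2.15% against 5.27% and ETS (CCGGAAGT) in 0.269% against 0.781%. In RefSeq promoters these shares were 14.0% for TEAD, 8.11% for the ISRE core, 7.66% for GAS, 3.42% for FOX, 1.29% for CArG, 1.85% for CRE, 10.5% for C/EBP, 4.27% for RUNX, 22.6% for KLF/SP and 4.14% for ETS.

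The frequency of κB matches rose with the TNF difference and changed little with the IL-1β difference below 2. Among the peaks meeting the IL-1β condition, 8.47% of the 59 whose TNF difference was below 0 held a κB match. The share was 11.0% of 391 peaks with a TNF difference of 0 to 0.5, 15.3% of 898 peaks from 0.5 to 1, 26.4% of 993 peaks from 1 to 1.5, 45.6% of 557 peaks from 1.5 to 2 and 69.6% of the 408 peaks at 2 or more. Among the peaks meeting the TNF condition, ordered in the same way by the IL-1β difference, it lay between 40.6% and 46.4% up to a difference of 2 and was 57.5% in the 186 peaks above it. Peaks that met the IL-1β condition alone held a κB match in 14.8%, near the 16.0% of all peaks, and those that met the TNF condition alone in 43.6%. AP-1 matches were frequent in both, at 57.2% and 50.4%. Mean GC content differed little between these sets, at 45.2% for the members, 45.9% for the IL-1β condition alone, 44.2% for the TNF condition alone and 46.7% for all peaks. These shares are descriptions of the sequence, and a match is not evidence of binding.

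**Figure D1:**
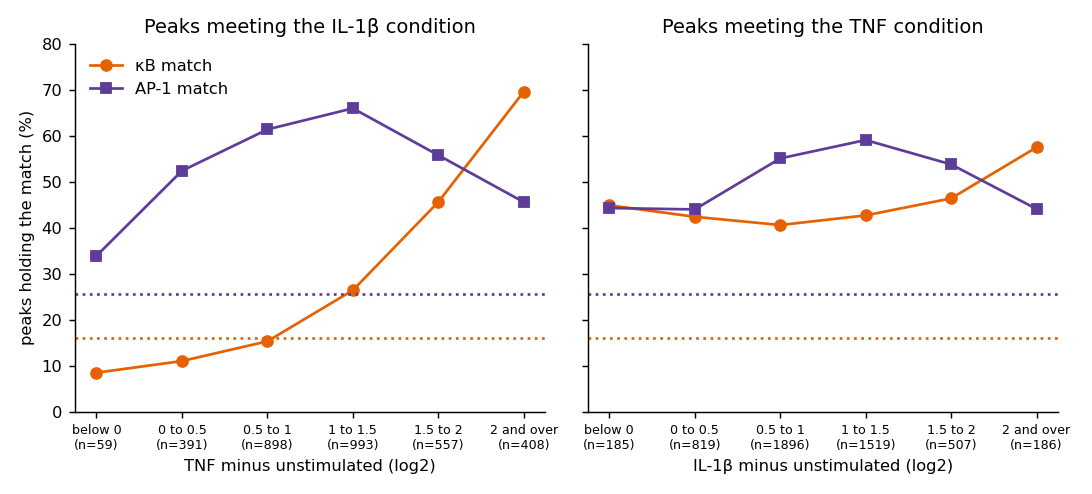
Share of peaks holding a κB match (circles) or an AP-1 match (squares), in percent, for the peaks meeting the IL-1β condition ordered by their TNF difference (left) and for the peaks meeting the TNF condition ordered by their IL-1β difference (right), both in log2 against unstimulated cells. Dotted lines give the shares of all 407383 peaks. On the left the κB share goes from 8.47% to 69.6%, while on the right it starts at 44.9% and ends at 57.5%.

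Within the members the same order was seen, which is not a separate result because they are among the peaks ordered above by the same differences. Members whose TNF difference exceeded the IL-1β difference by 1 or more held a κB match in 83.9% (87 peaks) and an AP-1 match in 33.3%, and those in which IL-1β exceeded TNF by more than 0.5 held them in 22.0% and 62.7% (59 peaks). In the 137 members whose differences both reached 2, the κB share was 62.0% and the AP-1 share 41.6%, against 41.4% and 59.2% of all members. Members with a κB match and no AP-1 match had median differences of 1.90 with TNF and 1.41 with IL-1β (373 peaks). Those with an AP-1 match and no κB match had 1.34 and 1.29 (703 peaks).

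The members lay mostly away from promoters. By the class in the deposited peak names, 50.5% were intronic, 42.1% distal, 4.30% exonic and 3.06% promoter, against 51.7%, 34.5%, 6.71% and 7.15% of all peaks. The median distance to the nearest GENCODE v44 start site was 8339 bases, against 6858 bases for all peaks, and 12.1% of the members lay within 1 kb of a start site, against 19.5%. The members were named for 1513 genes, of which 1276 had 1 member, 237 had 2 or more and 58 had 3 or more, and 2 members carried no gene name. Of the 1861 members, 362 (19.5%) had another member within 20 kb. The largest such group was the 14 members around CXCL8, which were among 29 peaks of the table in 43.6 kb of chr4. It was followed by the 8 members of CXCL1 in 5.17 kb, where all 8 peaks of the span were members, by 7 members around CXCL2 in 19.9 kb and by 6 members in 28.7 kb of chr6 whose nearest coding start was that of TNFAIP3. The genes with the most members were CXCL8 (14), CXCL1 (8), GLIS3-AS1, LINC02539 and LOC101929935 (7 each), TCIM and WTAP (6 each), and CCL2, CXCL2 and MIR4756 (5 each).

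The differences that chose the members are given as a description, with no test. With TNF the median member rose by 1.51 on the log2 scale (5th to 95th percentile 1.05 to 2.80, highest 4.95), and with IL-1β by 1.34 (1.03 to 2.23, highest 4.75). The TNF difference was the larger in 1255 members (67.4%), and both differences reached 2 in 137 members (7.36%) and 3 in 13 members (0.699%). Both differences are taken against the same unstimulated libraries. Before stimulation most members were weakly accessible, with a median of 2.01 per Mb, and 1326 members (71.3%) lay under 3 per Mb. Nearest to the threshold, the members at CACNA1C-IT3 (TNF 1.0002, IL-1β 1.1257) and CRISPLD2 (TNF 1.0003, IL-1β 1.2882) were just inside it, and the peaks at VLDLR-AS1 (TNF 0.9999, IL-1β 1.0556) and ABCA5 (TNF 1.2077, IL-1β 0.9997) were just outside.

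**Figure D2:**
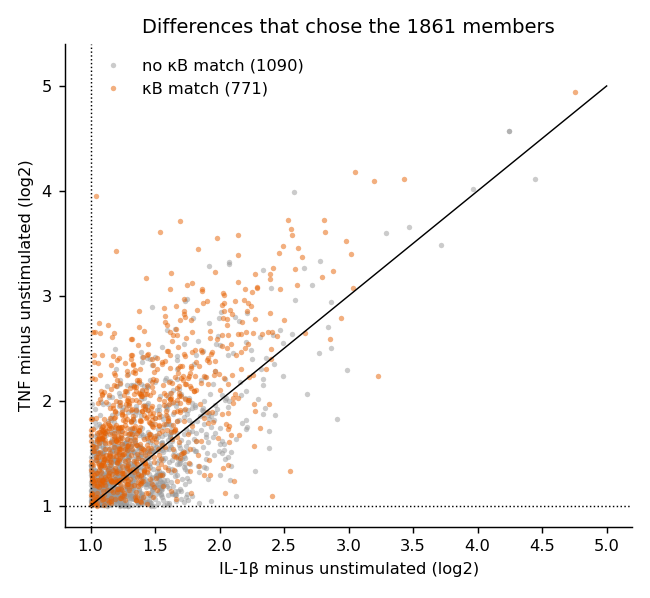
Log2 difference from unstimulated cells with IL-1β (horizontal) and TNF (vertical) for each of the 1861 members, coloured by whether the peak holds a κB match. Dotted lines mark the threshold of 1 and the diagonal marks equal differences. Of the members, 1255 lie above the diagonal. The fitted TNF minus IL-1β difference uses the scaling of the tests and is not the plotted height. Its median is 0.373 in the 771 members with a κB match and 0.067 in the 1090 without one.

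Per library, the median coverage of the members was 1.90 to 2.25 per Mb in the unstimulated group, 5.80 to 6.32 per Mb with IL-1β and 6.93 to 7.63 per Mb with TNF. No TNF library overlapped an IL-1β library, but these libraries chose the members and were given at different doses, so this is a description only. The members took up 0.505 ± 0.0314% of all coverage in unstimulated libraries, 1.46 ± 0.0469% with IL-1β and 1.72 ± 0.0550% with TNF (SD, n = 4). By limma's test with Benjamini-Hochberg adjustment, 1851 members were past an adjusted p of 0.05 with TNF, where the background is 2.67% of tested peaks, and 1825 with IL-1β, where it is 1.72%. The rule fixes these counts, so nothing is read from them. All 1861 members passed the filter on low coverage.

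**Figure D3:**
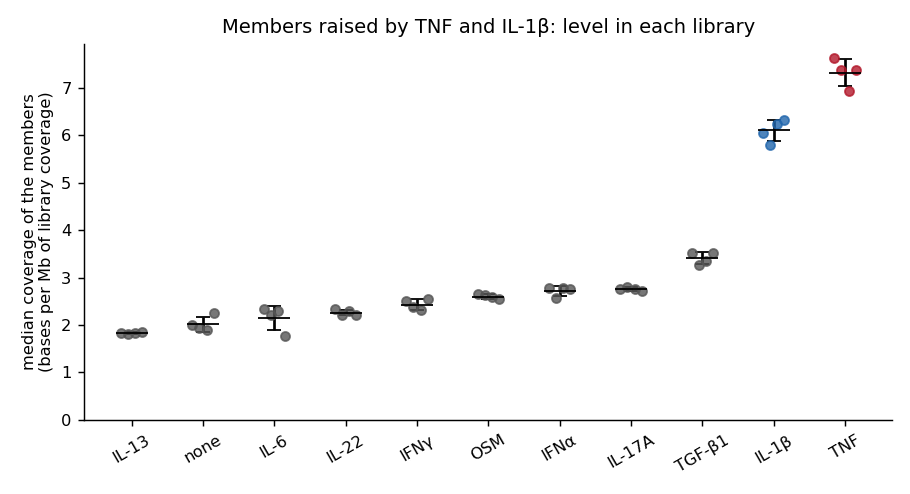
Median coverage of the 1861 members in each of the 44 libraries (points), in bases per Mb of library coverage, with the mean and SD of each group of 4 (bars). "None" is the unstimulated group, and the groups are ordered by their mean. IL-1β (6.10) and TNF (7.32), which chose the members, lie above all others, and TGF-β1 (3.41) is the highest of the groups that the rule did not use.

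The members with the largest differences lay at CXCL8, a CXC chemokine gene whose product attracts neutrophils. Of 334 peaks named for 14 CXC and CX3C chemokine genes, 33 were members (9.88%, against 0.457% of all peaks), in CXCL8, CXCL1, CXCL2, CXCL3, CXCL6 and CXCL10. CXCL5, also on this list, had no member. The single CXCL6 member was near the threshold (TNF 1.23, IL-1β 1.01). The member at chr4:73742531-73743031, in the untranslated last part of CXCL8, which encodes interleukin-8, had the largest difference of all. Its coverage was 0, 0, 0.0486 and 0.255 per Mb in the 4 unstimulated libraries, 20.5, 17.7, 17.1 and 13.8 with TNF, and 21.7, 12.7, 12.1 and 14.0 with IL-1β. Every unstimulated library held at most 3 read equivalents, so the means were at least 31.2-fold (TNF) and 27.2-fold (IL-1β) higher than the group's floor of 0.555 per Mb. The neighbouring member at chr4:73741958-73742458 had 0.320 ± 0.176 per Mb unstimulated, 19.2 ± 3.68 with TNF and 14.9 ± 2.33 with IL-1β (SD, n = 4), and 3 of its unstimulated libraries lay under 3 read equivalents.

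The members of CXCL8 lay across the gene and on both sides of it. All 9 peaks of the table with centres from 1 base before to 4847 bases after the start site were members, 4 more had centres at -18960 to -5203 bases from it and 1 at 24127 bases. Their summed coverage was 9.80 to 13.4 per Mb in unstimulated libraries, 129 to 153 with IL-1β and 158 to 191 with TNF. With the other 8 cytokines the group mean lay between 8.36 (IL-13) and 17.5 per Mb (IFNγ), around the unstimulated mean of 11.7. These sums were taken for genes with many members, chosen after their values were seen.

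**Figure D4:**
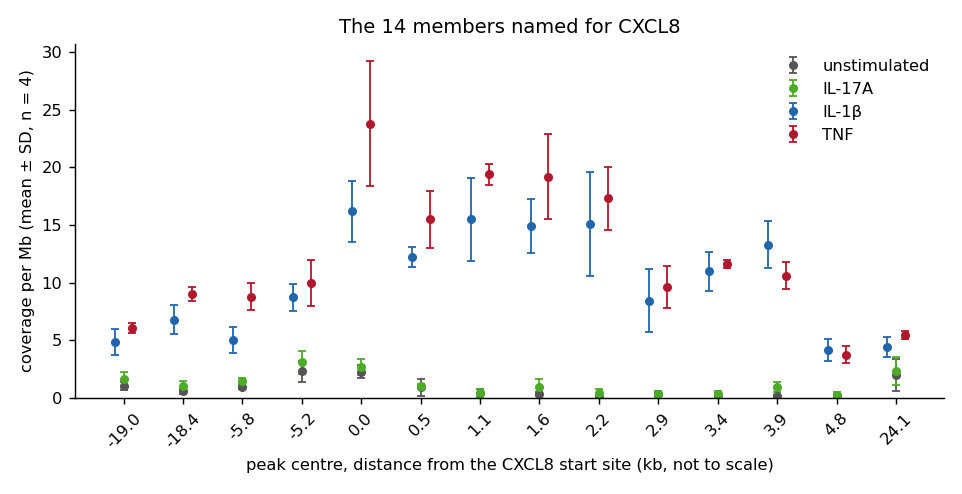
Coverage per Mb (mean ± SD, n = 4) of the 14 members named for CXCL8, in the order of their position, with the distance of each centre from the start site in kb on the horizontal axis. TNF and IL-1β are high from the start site through the gene body, where the unstimulated and IL-17A means are at most 2.69 per Mb.

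CXCL1, whose product also attracts neutrophils through CXCR2, behaved differently with other cytokines. The summed coverage of its 8 members was 42.0 to 46.5 per Mb in unstimulated libraries, 139 to 152 with TNF and 121 to 142 with IL-1β. IL-17A libraries lay in between, at 77.6 to 103, and did not overlap the IL-22 libraries at 31.8 to 40.4. The IL-22 libraries lay below every unstimulated library. OSM (53.2 to 59.2), IL-13 (43.7 to 50.9) and IFNα libraries (42.1 to 50.6) also lay above the IL-22 range, and of these only OSM lay above every unstimulated library. TGF-β1 libraries were lowest, at 21.1 to 23.0. By the test against IL-22, 5 of the 33 CXC members were raised with IL-17A, all of them at CXCL1, and 4 were lowered with TGF-β1, also all at CXCL1, where 0.057% and 2.05% of all tested peaks were called. At CXCL2 the strongest member, chr4:74097497-74097997, had 0.931 ± 0.448 per Mb unstimulated, 7.31 ± 2.03 with TNF and 8.94 ± 1.33 with IL-1β (SD, n = 4).

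CCL2, which encodes the monocyte attractant MCP-1, held 5 of the 6 members among 153 peaks of 12 CC chemokine genes (3.92%), and CCL21 the other. The strongest, 19698 bases from the CCL2 start site and shown above, had 0.901, 1.53, 2.82 and 3.29 per Mb in unstimulated libraries. It had 28.9, 35.2, 27.9 and 27.1 with TNF and 19.8, 15.0, 17.4 and 15.1 with IL-1β. Summed over the 5 members, IFNα libraries had 14.2 to 19.2 and IFNγ libraries 11.7 to 14.8 per Mb, both above the IL-22 range of 6.46 to 8.16. With IFNα 2 of them were called raised against IL-22 and with IFNγ 3, where 0.393% and 1.49% of all tested peaks were.

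Genes of the NF-κB system itself made up another group. Of 596 peaks named for 20 NF-κB subunit and feedback genes, 17 were members (2.85%), in 9 genes. NFKBIA had 5 of them, TNIP1, an A20-binding inhibitor, had 3, and NFKB1 and NFKB2, which encode the p105 and p100 precursors, had 2 each. NFKBIE, TNIP2, TRAF1, BIRC2 and BIRC3 had 1 each. The strongest NFKBIA member, 26711 bases from its start site, had 1.36, 0.569, 0.228 and 1.22 per Mb unstimulated, 16.7, 11.3, 16.6 and 10.6 with TNF, and 8.47, 5.75, 6.67 and 7.99 with IL-1β. The groups did not overlap, but the rule favours this, and TNF and unstimulated libraries did not overlap in 94.3% of all members. At the promoter of BIRC3, which encodes the ubiquitin ligase cIAP2, the means were 6.53 ± 1.07, 27.9 ± 1.39 and 17.0 ± 1.13 per Mb in the same order (SD, n = 4). TNFAIP3 had no member under its own deposited name, but 11 members had its start site as their nearest coding start. Their summed coverage was 18.2 ± 3.71 per Mb unstimulated, 116 ± 5.49 with TNF and 79.7 ± 5.60 with IL-1β (SD, n = 4). IL-17A libraries did not overlap IL-22 libraries in the sums for NFKBIA (11.7 to 17.0 against 6.48 to 8.14) or for the TNFAIP3 group (24.7 to 34.9 against 19.9 to 22.7). IFNα libraries also lay above the IL-22 libraries in both sums (9.39 to 13.4 and 25.4 to 30.1), and TGF-β1 libraries at NFKBIA (8.95 to 13.2). In the TNFAIP3 group IL-6, IL-13 and OSM libraries lay below the IL-22 libraries. Of the 17 members, TGF-β1 raised 4 against IL-22, and IL-17A and OSM raised 1 each. Of all tested peaks these cytokines raised 3.15%, 0.057% and 0.972%.

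Receptors and adaptors of the TNF and IL-1 pathways held fewer members, 6 of 571 peaks in 25 genes (1.05%). They were 3 at MAP3K8, a kinase held in check by the p105 precursor, and 1 each at IL1R1, the signalling receptor of IL-1, IRAK2 and TAB2. The IRAK2 member, in an intron 34276 bases from its start, was the clearest of them, at 1.86 to 2.77 per Mb unstimulated, 18.5 to 21.1 with TNF and 10.6 to 12.5 with IL-1β.

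Secreted factors held 19 members among 815 peaks of 24 genes (2.33%), with 4 each at LIF, a cytokine of the IL-6 family, and IL33, an alarmin. The others were single members at CSF1, CSF2, CSF3, IL1B, IL7, IL11, IL15, IL24, IL32, INHBA and TSLP. The promoter member of IL32 had 2.29 ± 0.988 per Mb unstimulated, 14.0 ± 0.507 with TNF and 5.52 ± 0.758 with IL-1β. The best IL33 member had 1.31 ± 0.802, 5.24 ± 1.56 and 7.26 ± 1.83 per Mb in that order (SD, n = 4), so that IL-1β was the higher in mean there and the libraries overlapped.

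Among proteases, MMP10, MMP12 and MMP13 had 1 member each (3 of 584 peaks in 18 genes, 0.514%), and the share was close to that of all peaks. The member near MMP12, which encodes macrophage elastase, had 0.704 to 2.61 per Mb unstimulated, 16.1 to 21.1 with TNF and 10.0 to 12.4 with IL-1β. Adhesion and surface genes held 5 of 502 peaks (0.996%), at CD82, F3 and ICAM1, and prostaglandin and redox genes 5 of 370 (1.35%), at PTGS2, PTGS1 and NAMPT. Transcription factors held 8 of 1004 (0.797%), at IRF1, ETV4, TWIST1, CEBPD, FOSL1 and ETS1. Contractile genes held 0 of 374 peaks, and collagen and matrix genes 1 of 1002 (0.0998%), an exonic peak of COL7A1, the anchoring-fibril collagen.

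The other members among the 10 with the largest smaller difference were mostly outside these lists. At STX8, a syntaxin of vesicle fusion, the intronic member shown above had 0.846, 0, 0.619 and 1.63 per Mb unstimulated, 16.6, 21.4, 19.3 and 18.9 with TNF, and 7.82, 10.2, 11.2 and 10.2 with IL-1β. The member in an exon of LINC01589, a non-coding RNA gene, had 0.484 ± 0.335 per Mb unstimulated, 15.7 ± 0.320 with TNF and 9.63 ± 1.87 with IL-1β. A distal member named for ETV4, an ETS-family factor of the transcription factor list, had a higher mean with IL-1β, at 17.8 ± 2.32 against 15.2 ± 1.20 with TNF and 1.01 ± 0.667 per Mb unstimulated, although the TNF and IL-1β libraries overlapped. The member named for DNMT3L, a cofactor of DNA methyltransferases, lay nearest to a start of a non-coding gene and had no coverage in any unstimulated library. It had 2.22 to 5.31 per Mb with TNF and 2.49 to 4.98 with IL-1β, so that the means were at least 7.05-fold and 6.63-fold above the floor. The remaining members of the leading 10, named for ADTRP, TTLL4, MIR4642 and TM9SF4, had unstimulated means of 0.386 to 2.90 per Mb and TNF means of 14.2 to 29.1.

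TNF and IL-1β were also compared with each other across all 44 libraries. The same 8 libraries had helped to choose the members, and the doses differ, so the counts are a description only. No background in the members' coverage range was taken for this comparison. By limma's test with adjustment over 407176 tested peaks, 84 members were higher with TNF (4.51%, against a background of 1%) and 5 higher with IL-1β (0.269%, against 0.316%). Fitted on those 8 libraries alone the counts were 303 and 22, and with a pseudocount of 2 they were 211 and 10. Without TNF replicate 2, 50 members were called in all. Of the 84, 65 held a κB match (77.4%), against 41.4% of all members and 29.7% of all tested peaks called higher with TNF. The κB shares ordered by the TNF difference above come from the same libraries, so this share is not a separate result.

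The 3 members that most favoured TNF were intronic and held both κB and AP-1 matches. At PPARD, a nuclear receptor gene, coverage was 25.0, 34.4, 27.2 and 21.5 per Mb with TNF and 2.55, 2.90, 3.56 and 3.27 with IL-1β, a difference of 2.93 on the log2 scale (SE 0.33, adjusted p = 8.87e-13). At the peak named for ADA, which encodes adenosine deaminase, and 12342 bases from the PKIG start, the difference was 2.25 (SE 0.29, adjusted p = 1.32e-09), with 24.8 to 32.1 per Mb against 3.97 to 8.61. The peak named for MIR4311, 1692 bases from the start of MEGF11, differed by 2.09 (SE 0.31, adjusted p = 1.05e-07). In the other direction, the peak at the start of CSF3, which encodes G-CSF, had 4.69, 3.78, 3.73 and 3.67 per Mb with TNF and 10.6, 10.3, 12.7 and 8.30 with IL-1β (difference -1.29, SE 0.32, adjusted p = 0.00963). SH3PXD2A-AS1 differed by -1.19 (SE 0.31, adjusted p = 0.0197) and FAM71E2 by -1.02 (SE 0.22, adjusted p = 0.0013). The call at CSF3 was lost without IL-1β replicate 3 (adjusted p = 0.0615 by limma), and that at SH3PXD2A-AS1 without TNF replicate 3 (0.236) or IL-1β replicate 2 (0.0907) or 3 (0.106).

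The other cytokines were tested against IL-22 in the 32 libraries that the rule did not use. The unstimulated libraries were left out of this test because the rule had picked peaks that were low in them. IL-22 was the reference because the paper reports hardly any significant response of stromal cells to it. Raised and lowered therefore mean relative to IL-22, not to unstimulated cells. The median coverage of the members with IL-22 was 2.22 to 2.33 per Mb. TGF-β1, with 3.27 to 3.52, IL-17A, with 2.71 to 2.81, IFNα, with 2.56 to 2.78, and OSM, with 2.55 to 2.66, did not overlap that range and lay above it, and IL-13, with 1.80 to 1.85, lay below it. IFNγ and IL-6 ran from 2.31 to 2.54 and from 1.77 to 2.33 and overlapped it. All 32 libraries lay below the lowest IL-1β library (5.80).

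TGF-β1, which drives matrix production and myofibroblast formation, raised the most members. It raised 368 (19.8%, against a background of 3.15%) and lowered 14 (0.752%, against 2.05%). The median difference was 0.475 in members and 0.262 in all tested peaks, and this general shift depends on the scaling. With a composition factor over all peaks the medians were 0.290 and 0.133, and with cyclic loess 0.439 and -0.0128. The median of all tested peaks also moved with OSM (-0.11) and IFNα (0.101). Of the 368, 258 (70.1%) held an AP-1 match and 104 (28.3%) a κB match, against 41.6% and 14.9% of all tested peaks raised by TGF-β1. Of all members, 59.2% and 41.4% held these matches, so the κB share of the raised members was below that of the members. By class of match, 26.7% of the members with an AP-1 match and no κB match were raised, and 9.12% of those with a κB match and no AP-1 match. Among all tested peaks the same shares were 5.12% and 2.32%. The intronic member named for CHAF1B, 4908 bases from the start of the tight-junction gene CLDN14, had 10.4, 8.92, 6.17 and 9.91 per Mb with TGF-β1 and 0.468, 1.08, 0.753 and 1.60 with IL-22 (difference 2.70, SE 0.35, adjusted p = 2.93e-10). That at PLCE1-AS1 had 14.0 to 18.5 against 1.81 to 2.26 per Mb (difference 2.68, SE 0.32, adjusted p = 4.24e-12). Lowered members were led by APBA1 (difference -1.12, SE 0.26, adjusted p = 0.00146) and a distal peak of CXCL1, chr4:73872582-73873082, with 1.58 to 3.46 per Mb against 4.07 to 7.63 (difference -0.91, SE 0.20, adjusted p = 0.000878).

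OSM, an IL-6 family cytokine that signals through STAT3, raised 138 members (7.42%, against 0.972%) and lowered 21 (1.13%, against 0.637%). In tested peaks within the members' coverage range the lowered share was 1.11%, near that of the members. RUNX matches were present in 51 of the 138 (37.0%), against 14.6% of all members and 26.9% of all tested peaks raised by OSM. The distal peak named for MIR101-2 had 9.97, 14.3, 12.2 and 13.1 per Mb with OSM and 0.497, 0.904, 2.34 and 1.79 with IL-22 (difference 2.88, SE 0.32, adjusted p = 3.35e-13), and thus exceeded the 4.40 to 6.21 seen with TNF. HORMAD2-AS1 rose by 2.68 (SE 0.33, adjusted p = 8.82e-11). Of the 21 lowered members, 14 held a κB match (66.7%, against 41.4% of all members and 13.1% of all tested peaks lowered by OSM). RAD51B fell by 1.65 (SE 0.32, adjusted p = 0.000122), from 2.50 to 3.94 per Mb with IL-22 to 0.0460 to 1.15 with OSM, and a distal peak named for PPARGC1A fell by 1.44 (SE 0.29, adjusted p = 0.000265). Unstimulated libraries, not part of this test, had 1.31 to 5.94 per Mb at RAD51B, above OSM. At PPARGC1A they had 1.3 to 6.55, overlapping OSM (0.461 to 1.49).

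IL-17A, which shares NF-κB activation with TNF and IL-1β, raised 232 of all tested peaks, of which 42 were members (2.26% of them, against 0.057% of all) and lowered 0 members (against 0.058%). At an unadjusted p under 0.05 by limma, 373 members (20.0%, against 4.59% of all tested peaks) were higher and 33 (1.77%, against 2.87%) lower. Of the 42, 29 held a κB match (69.0%), against 41.4% of all members and 25.4% of all tested peaks raised by IL-17A. The count depended on single libraries. It was 25, 20, 23 and 27 without IL-17A replicates 1 to 4, 26 and 24 without IL-22 replicates 3 and 4, and 25 with a composition factor over all peaks. The leading members were those of LINC01589, at 1.99 to 2.50 per Mb against 0 to 0.451 with IL-22 (difference 2.21, SE 0.40, adjusted p = 0.000561), and STX8. At STX8 coverage was 3.93, 4.39, 2.82 and 2.52 per Mb with IL-17A and 0, 0.644, 0.990 and 0.243 with IL-22 (difference 2.11, SE 0.35, adjusted p = 9.02e-05), below the 16.6 to 21.4 reached with TNF.

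The interferons raised a share of members as well. IFNα raised 81 (4.35%, against 0.393%) and lowered 6 (0.322%, against 0.344%), and without IL-22 replicate 4 the calls in both directions went from 87 to 56. IFNγ raised 84 (4.51%, against 1.49%) and lowered 20 (1.07%, against 0.293%). ISRE core matches were held by 40 of the 84 (47.6%), near the 53.3% of all tested peaks raised by IFNγ and against 18.5% of all members. Of members with this match 11.6% were raised, against 2.90% of those without it, where all tested peaks gave 4.25% and 0.857%. The promoter member of CXCL10, an interferon-induced chemokine gene whose promoter is shown above, had 10.1, 8.85, 13.3 and 11.1 per Mb with IFNα and 0.662, 1.14, 1.18 and 1.43 with IL-22 (difference 2.83, SE 0.33, adjusted p = 2.37e-11). It had 7.72 to 12.0 per Mb with TNF and 3.57 to 4.54 with IL-1β. STX8 rose by 2.48 with IFNα (SE 0.35, adjusted p = 7.69e-08). A distal peak named for FAM71A had 16.1, 15.1, 13.4 and 15.4 per Mb with IFNγ and 0.402, 0.778, 0.992 and 0.243 with IL-22 (difference 3.86, SE 0.36, adjusted p = 3e-18), above its 3.85 to 6.56 with TNF. A peak named for SLC51A, 1034 bases from the PCYT1A start, followed with 2.49 (SE 0.32, adjusted p = 3.07e-10).

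Fewer members were lowered than raised by interferons, although the share lowered by IFNγ (1.07%) was above the 0.293% of all tested peaks. SNORA11B fell by 1.11 with IFNα (SE 0.24, adjusted p = 0.00218) and PRSS3 by 1.03 (SE 0.27, adjusted p = 0.0292), and WHRN fell by 1.33 (SE 0.34, adjusted p = 0.00948) and GINS3 by 1.28 (SE 0.32, adjusted p = 0.00675) with IFNγ. By limma, the PRSS3 call was lost without IFNα replicate 2 (adjusted p = 0.0652), 3 (0.0651) or 4 (0.24) or any one IL-22 library (0.0575 to 0.118). The WHRN call was lost without IFNγ replicate 1 (0.0788) or 4 (0.0917) or IL-22 replicate 2 (0.129), and the GINS3 call without IFNγ replicate 4 (0.11). Unstimulated libraries, not part of this test, had 1.61 to 3.38 per Mb at PRSS3, overlapping IFNα (0.984 to 3.12). At WHRN they had 0.582 to 3.06, overlapping IFNγ (0.358 to 1.55). At SNORA11B they had 5.27 to 6.48, above IFNα (1.95 to 4.04), and at GINS3 2.91 to 4.49, above IFNγ (0.61 to 2.18).

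IL-13 went mostly the other way. It lowered 113 members (6.07%, against 0.605%) and raised 9 (0.484%, against 0.422%). The median difference was -0.248 in members and 0.0437 in all tested peaks. Of the 113, 89 held an AP-1 match (78.8%, against 59.2% of all members and 66.6% of all tested peaks lowered by IL-13). Of members with a κB match and no AP-1 match 0.804% were lowered, against 8.68% of those with an AP-1 match and no κB match. Among all tested peaks these shares were 0.224% and 1.61%. IGFBP7, which encodes a secreted insulin-like growth factor binding protein, had an intronic member at 1.13, 0, 0 and 0.849 per Mb with IL-13 and 2.84, 2.82, 3.57 and 2.07 with IL-22 (difference -1.93, SE 0.31, adjusted p = 5.25e-06). An intronic member of ZFPM2, a GATA cofactor gene, fell by 1.86 (SE 0.30, adjusted p = 3.29e-06). Raised members were led by LINC01589 (difference 1.57, SE 0.40, adjusted p = 0.0174) and LYN (difference 1.17, SE 0.23, adjusted p = 0.000483). At LINC01589 coverage was 1.63, 2.45, 0.688 and 0.745 per Mb with IL-13, and the call was lost without IL-13 replicate 1 (adjusted p = 0.0714) or 2 (0.157) or IL-22 replicate 1 (0.0693), 3 (0.0675) or 4 (0.0732). Unstimulated libraries, not part of this test, had 0 to 0.756 per Mb at LINC01589 and 0.899 to 3.02 at IGFBP7, overlapping IL-13 at both. At LYN they had 1.86 to 5.15, below IL-13 (7.05 to 9.34), and at ZFPM2 2.0 to 4.02, above IL-13 (0.0122 to 1.61).

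IL-6 gave almost no calls against IL-22. It raised 1 member (0.0537%, against 0.00196%) and lowered 0 (against 0.0081%). At an unadjusted p under 0.05 by limma, 61 members (3.28%, against 4.25% of all tested peaks) were higher and 175 (9.40%, against 3.36%) lower. Against the mean of the other 7 groups in place of IL-22, 79 members were called, 78 of them lowered. The shallow IL-6 replicate 4 had a median member coverage of 1.77 per Mb and no coverage in 11.7% of the members. IL-6 replicates 1 to 3 had medians of 2.33, 2.21 and 2.29, against 2.22 to 2.33 with IL-22. How far these lowered counts depend on replicate 4 was not tested. The called member, a distal peak of CXCL1 at chr4:73873135-73873635, had 5.25, 5.92, 7.94 and 12.1 per Mb with IL-6 and 2.99, 3.53, 2.86 and 2.53 with IL-22 (difference 1.20, SE 0.25, adjusted p = 0.0336). Its highest value was in the shallow IL-6 replicate 4, and without that library the adjusted p was 0.831. The call was also lost without IL-6 replicate 3 (0.0502) or any one IL-22 library (0.0531 to 0.166).

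**Figure D5:**
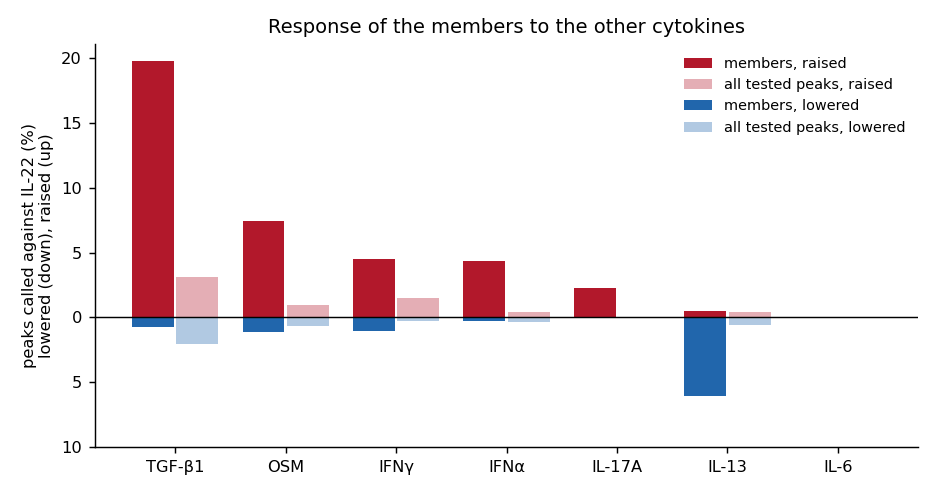
Share of peaks called against IL-22 at an adjusted p under 0.05, in percent, for the 1861 members (dark bars) and for all 407176 tested peaks (light bars). Bars above 0 are raised and bars below 0 are lowered peaks. TGF-β1 raised 19.8% of the members and IL-13 lowered 6.07% of them.

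Because members lie at higher coverage than most peaks, the backgrounds were also taken over the 153386 tested peaks in the members' coverage range (5th to 95th percentile). There the raised shares were 3.53% for TGF-β1, 1.63% for OSM, 2.56% for IFNγ, 0.574% for IFNα, 0.0808% for IL-17A, 0.683% for IL-13 and 0.00196% for IL-6, and the lowered shares were 2.10%, 1.11%, 0.453%, 0.608%, 0.0522%, 0.941% and 0.0150% in the same order. The comparisons share the IL-22 libraries, so their counts are given side by side only. At the distal CXCL1 peak chr4:73872582-73873082, singled out after its values were seen, IL-17A libraries had 16.7 to 26.9 per Mb against 4.07 to 7.63 with IL-22 (difference 1.88, SE 0.20, adjusted p = 1.08e-12), a level that overlapped the 18.7 to 22.7 with TNF and the 20.3 to 22.8 with IL-1β. Unstimulated libraries had 8.65 to 9.28 per Mb there, above every IL-22 library, so the rise over unstimulated cells was smaller than that over IL-22.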

How the data were processed

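ATAC-seq libraries of 44 samples were deposited by the authors as 1 table of signal, the read coverage summed over each of 407383 peaks, without scaling for library size. The submitters' processing notes name hg38 and MACS2. All peaks have one fixed width, unlike MACS2 calls of single libraries. The paper describes fixed-width peaks for its single-cell ATAC-seq of patient tissue and peaks of variable length for its bulk ATAC-seq. Whether the deposited peaks are the single-cell ones is not stated. In which cells they were called and how they were filtered is not given in the sources used here. Coverage sums are not read counts, so count models were not used. Columns were matched to samples by library number.

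Coverage was divided by the library total in Mb and by a trimmed-mean composition factor (0.95 to 1.03; trims of 30% and 5%), 0.5 was added and log2 taken, which understates changes of low peaks. Peaks with log2 mean coverage at or below -3 were left out (207). limma 3.58.1 in R 4.3.3 was fitted with group as the only term and a mean-variance trend, tested on simulated data, with Benjamini-Hochberg adjustment over 407176 peaks and a threshold of 0.05. Coverage per group is mean ± SD of 4 libraries. A floor of 3 reads of 75 bases gave bounds, which cover counting error only. Motifs were searched in hg38, and start sites came from GENCODE v44.

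The members and gene lists were chosen with earlier results of these data known. Peaks named were the 10 with the largest smaller difference (at most 2 per gene), for each comparison with IL-22 the 2 raised and 2 lowered called members with the largest change and no overlap of libraries, 3 each way for TNF against IL-1β, the best member per listed gene, the peaks nearest the threshold and the 10 genes with most members. Alternatives changed the scaling, pseudocount, filter, weights, reference, replicate block and libraries.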

Additional observations from a re-analysis of the deposited data

Results flagged for a closer look

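In 97 groups of 4 libraries, the highest or lowest library was compared with the rest (gap over range above Dixon's 95% critical value), and 6 libraries stood apart. Chance alone flags about 1 in 20 groups. For the members as a whole, IFNα replicate 2, the deepest library, had a median coverage of 2.56 per Mb, below the other 3 IFNα libraries, yet above every IL-22 library. With IL-22, HORMAD2-AS1 had 1.22 per Mb in replicate 2, LINC01589 had 0.451 in replicate 2, ZFPM2 had 3.99 in replicate 4 and PRSS3 had 5.02 in replicate 1, each the highest of its group. CSF3 had 4.69 per Mb in TNF replicate 1, above the other TNF libraries and below every IL-1β library.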

How the results depend on the processing

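The number of members was 476 with a threshold of 1.5 and 851 with a minimum coverage of 6 per Mb, and 1807 to 2075 when 1 unstimulated, TNF or IL-1β library was left out. With the mean of the other 7 groups as reference in place of IL-22, members called were 286 for OSM, 119 for IL-17A, 79 for IL-6, 479 for IL-13, 183 for IFNγ and 644 for TGF-β1, where IL-6 lowered 78 of its 79. Array quality weights gave 259 for OSM. A composition factor over all peaks, chosen after seeing the data, gave 25 for IL-17A and 0 for IL-6, and cyclic loess, also added then, gave 3 for IL-6. Between TNF and IL-1β, 221 were called with a pseudocount of 2 and 325 with only the 8 libraries of these groups. The cause of these moves was not tested. Leaving out 1 library gave 111 to 134 calls for OSM, 20 to 32 for IL-17A, 0 to 9 for IL-6, 79 to 114 for IL-13, 56 to 77 for IFNα, 73 to 84 for IFNγ, 303 to 335 for TGF-β1 and 50 to 76 between TNF and IL-1β. The IL-13 count was 79 without IL-13 replicate 2.

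Replicate numbers are shared across groups, but deviations of same-numbered libraries were uncorrelated (220 pairs, r of -0.0458 to 0.0369), and 11 of 44 libraries correlated best with their own number, so the numbers do not pair the samples. With a replicate block the calls were 159 for OSM, 45 for IL-17A, 1 for IL-6, 124 for IL-13, 88 for IFNα, 104 for IFNγ, 388 for TGF-β1 and 91 between TNF and IL-1β. Low coverage limits the weakest members, where 3 reads amount to 0.274 to 1.52 per Mb by library.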
